A study of Mus musculus with 4 samples.

Results

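Gfi1-deficient Gr1-low bone marrow cells were compared with the GFP-low fraction of Gr1-low cells that keep 1 working Gfi1 allele, which uses 2 of the 4 samples of the series and 1 array on each side. The members of the comparison are the autosomal genes of the array. Of 12393 named genes, 410 on chromosomes X and Y were left out, and each of the other 11983 was represented by its brightest probe set, taken as the mean of all 4 arrays. A gene was counted as measured where its deposited log2 value was above a floor of 5.18, the 40th percentile of all values, on at least 1 of the 2 arrays, which held for 7796 genes. Values below the floor were raised to it, so a difference with 1 array below the floor is a bound, and the other 4187 genes got no difference. Every difference below is the log2 value in Gfi1-deficient monocytes minus that in GFP-low monocytes, and no test, p-value or error between animals is possible with these arrays.

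The series asked how Gfi1 directs the choice of mouse myeloid cells between the monocytic and the granulocytic fate. The Gfi1-deficient sample came from CD11b+, Gr1-low bone marrow cells of a GFP:Gfi1 KI/KI mouse, in which both Gfi1 alleles are replaced by the GFP reporter, and its label names no gate on GFP. The GFP-low sample came from CD11b+, Gr1-low, GFP-low cells of a heterozygous GFP:Gfi1 KI/WT mouse, so this control also carries 1 knock-in allele and no wild-type mouse was compared. The other 2 arrays, which serve below for levels only, measured GFP-high Gr1-low cells and Gr1-high granulocytes of KI/WT mice. All mice were 8 weeks old, untreated, kept under specific pathogen free conditions and backcrossed to C57BL/6 for at least 10 generations, and the labels do not say how many animals gave each sample. Genotype, the GFP gate and the sex of the mice differed together between the 2 samples, as transcripts of the sex chromosomes show, and their shares in any difference cannot be told apart.

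Gfi1 is a zinc finger protein that represses transcription by recruiting histone demethylase and deacetylase complexes, and it is needed for neutrophil maturation. Monocytes of mouse marrow comprise classical cells, which leave for inflamed tissue through the chemokine receptor Ccr2, and non-classical patrolling cells, which depend on the nuclear receptor Nr4a1. Interferons signal through receptor-bound Jak kinases to Stat and Irf factors, which bind interferon-stimulated response elements and switch on antiviral genes. Granule proteins of neutrophils are made in sequence, with the peroxidase and serine proteases of primary granules in early precursors and the proteins of secondary granules in later ones.

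The sort and the targeted gene were checked first, with levels given throughout as log2 values in the order Gfi1-deficient monocytes, GFP-low monocytes, GFP-high monocytes and granulocytes. Gfi1 itself read 5.18, 3.74, 10.31 and 7.31, at or below the floor on both arrays compared, so its probe set does not separate these samples, and whether it lies in the replaced part of the gene is not known here. Itgam, which encodes CD11b, read 10.38, 10.28, 11.06 and 11.92. The monocyte genes Csf1r (12.62, 12.90, 8.86 and 10.99) and Ccr2 (12.33, 12.32, 6.75 and 8.06) were high on both arrays compared and lower on the other 2. All 35 classical monocyte genes were above the floor on both arrays, and their summed linear signal was 162300 on each. The markers thus bear out the label monocyte for both samples, and neutrophil genes were measured on both as well. The 29 mature neutrophil genes had a summed signal of 53270 without Gfi1 and 61890 in the GFP-low sample, against 158400 in granulocytes, and 28 of them were above the floor on each array compared. In sorted bulk cells, fewer cells of a type and less RNA per cell cannot be told apart.

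The 2 arrays were close to each other, with 90.6% of the 7796 genes within 0.5 of equal. The median difference over all genes was 0.03 and the quartiles were -0.14 and 0.20. By a rule of 2-fold or more, 50 genes (0.641% of those measured) were higher and 100 (1.28%) were lower when Gfi1 was missing. A difference of 4-fold or more was seen for 13 higher genes (0.167%) and 22 lower genes (0.282%). Where 2 or more probe sets of a gene were measured, which was so for 2760 genes, their differences scattered with an SD of 0.17, a figure for disagreement between probes that says nothing of the spread from mouse to mouse. Of the 150 genes past 2-fold, 45 had another measured probe set, and for 44 of them all probe sets had the same sign. The exception was Ctse, a cathepsin gene with -1.48 on the probe set used and 1.14 on another. Another probe set also passed 2-fold for 31 of the 45.

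**Figure D1:**
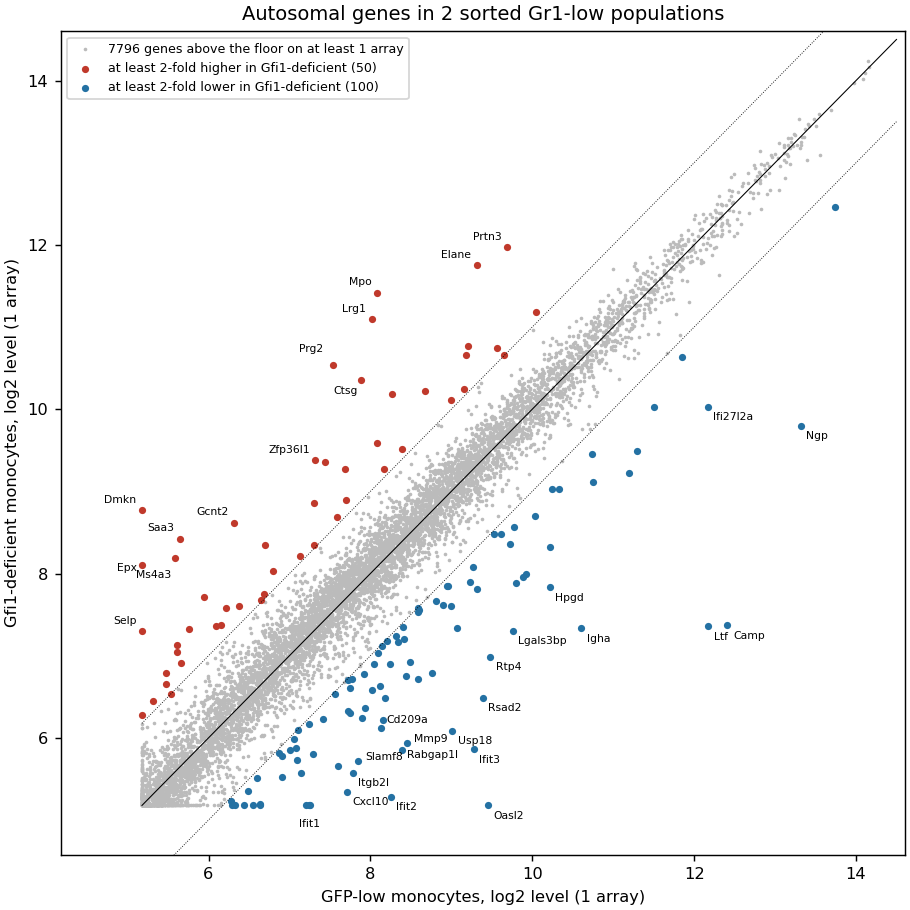
Log2 levels of the 7796 measured autosomal genes in GFP-low monocytes (x axis) and Gfi1-deficient monocytes (y axis), 1 array each, with values below the floor of 5.18 drawn at the floor. Red and blue points are the 50 higher and 100 lower genes past 2-fold, the dotted lines mark 2-fold, and most of the genes at least 4-fold apart are named. The cloud lies close to the diagonal, and the blue points at the lower right include Camp, Ltf, Ngp and many interferon genes.

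Interferon-related genes were frequent among the lower genes: 33 of the 100 stood in at least 1 of 6 interferon lists. Of the 50 higher genes 2 did so, Ifitm1 and Socs3. As background, the lists hold 115 of the 7796 measured genes. Over the 115 measured genes of these lists the median difference was -0.59, with 98 below 0 and 16 above, where the median over all genes was 0.03. Ifit3, whose product binds viral RNA together with other Ifit proteins, read 5.86, 9.28, 5.91 and 8.90. Its level in Gfi1-deficient monocytes was therefore near that of GFP-high cells, while GFP-low monocytes were near granulocytes. Rsad2, which encodes the antiviral enzyme viperin, read 6.49, 9.39, 7.50 and 10.85, a level 7.47-fold lower on the first array than on the second. Cxcl10, a chemokine that attracts lymphocytes, read 5.34, 7.71, 5.55 and 5.87, so that GFP-low monocytes stood above the other 3 arrays. Promoter windows of 7 such genes are shown because they hold the core of the interferon-stimulated response element, GAAANNGAAA on either strand, which is printed in capitals. They are taken from the RefSeq promoter table of build GRCm38.p6, run 5′ to 3′ on the strand of the gene, and lie before its annotated start.
Ifit3, chr19:34583353-34583402, plus strand: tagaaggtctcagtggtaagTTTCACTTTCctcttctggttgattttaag
Rsad2, chr12:26456543-26456592, minus strand: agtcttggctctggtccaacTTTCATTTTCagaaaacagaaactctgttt
Cxcl10, chr5:92349073-92349122, minus strand: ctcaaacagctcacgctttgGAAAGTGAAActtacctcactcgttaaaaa
Ifit1, chr19:34640765-34640814, plus strand: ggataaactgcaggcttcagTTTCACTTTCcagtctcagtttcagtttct
Oas3, chr5:120777705-120777754, minus strand: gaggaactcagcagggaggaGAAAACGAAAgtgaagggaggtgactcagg
Irgm2, chr11:58214893-58214942, plus strand: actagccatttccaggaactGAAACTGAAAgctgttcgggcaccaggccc
Igtp, chr11:58199502-58199551, plus strand: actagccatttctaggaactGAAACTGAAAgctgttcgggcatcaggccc

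In these windows the core in capitals began 156 bases before the start in Ifit3, 120 in Rsad2, 213 in Cxcl10 and 104 in Ifit1. It began 75 bases before the start in Oas3, 64 in Irgm2 and 34 in Igtp. The Ifit1 window holds another full core, tttcagtttc, left in small letters, which began 85 bases before the start. Irgm2 and Igtp, neighbouring genes for GTPases that act on pathogen vacuoles, shared 48 of the 50 bases shown. The table gives 250 bases before and 50 after the start, and 115 of the 150 genes past 2-fold matched it by gene identifier. The core was found in 18 of 76 lower genes with a promoter (23.7%) and in 1 of 39 higher genes (2.56%), beside 3.99% of 27025 genes in the table and 4.02% of the measured genes. Within the interferon lists it was found in 15 of 27 genes that were at least 2-fold lower (55.6%) and in 15 of 64 under 2-fold (23.4%). Among lower genes in no interferon list it stood in 3 of 49 (6.12%), and 2 of those genes, Slamf8 and Dpp4, were at least 4-fold lower. The gamma-activated site palindrome TTCNNNGAA was found in 11.8% of lower and 12.8% of higher genes, beside 9.55% of all genes in the table and 8.11% of the measured genes. Within the interferon lists this palindrome was found in 6 of 27 genes at least 2-fold lower (22.2%) and in 14 of 64 under 2-fold (21.9%). These matches describe letters in a fixed window and not bound sites.

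The pathway is described from ligand to target. Of the ligand genes, Ifnb1, Ifng, Ifna1, Ifna2 and Ifna4 were below the floor on both arrays. The type I receptor genes Ifnar1 (-0.16) and Ifnar2 (-0.20) and the kinase gene Jak1 (-0.13) differed little, and so did the type II receptor gene Ifngr1 (0.03). In the list of receptors, kinases and feedback regulators, 11 of 14 measured members lay below the median over all genes, against 50.0% of all genes by construction, and the list median was -0.11. The feedback regulators went apart: Usp18, which encodes a protease that removes Isg15 and dampens the type I receptor, read 6.08, 9.01, 5.23 and 8.41, while Socs3, an inhibitor of cytokine receptor kinases, read 8.68, 7.58, 5.79 and 9.35.

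Interferon transcription factors lay below the median of all genes for 15 of 16 measured members, with a list median of -0.46. Irf7, the main amplifier of type I interferon genes, read 7.89, 9.80, 6.92 and 9.37 and was 3.76-fold lower without Gfi1. Stat2 (-1.04) and Irf4 (-1.07) were also past 2-fold, and Irf9, the partner of Stat2, read 9.05 against 9.81 (-0.76). Irf8, a factor of monocyte development, and Irf3 and Irf2 differed by 0.00, 0.04 and -0.02.

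The 48 measured antiviral effectors had a list median of -0.98, and 46 of them lay below the median of all genes. At least 2-fold lower were 24 of the 48, where 1.28% of all measured genes were. The oligoadenylate synthetase family, which senses double-stranded RNA, included Oas1a (-1.91), Oas2 (-1.69), Oas3 (-1.97) and Oasl1 (-1.57) past 2-fold, while Oas1b (-0.14) and Oas1e (-0.24) were dim on both arrays and under it. Oasl2 read 4.91, 9.45, 5.51 and 9.66, below the floor in Gfi1-deficient monocytes and hence at least 19.3-fold lower there. Of the Ifit genes, Ifit2 read 5.28, 8.25, 7.79 and 7.01 and Ifit1 read 4.46, 7.21, 4.37 and 7.92, the latter at least 4.08-fold lower. Ifi27l2a (10.03, 12.17, 7.19 and 10.99) stayed among the brighter genes of both arrays. Rtp4 and Lgals3bp, a secreted glycoprotein gene, were 5.63-fold and 5.47-fold lower. Going the other way, Ifitm1, a membrane protein that blocks virus entry, read 9.28, 8.17, 7.61 and 12.38, with granulocytes highest, and its relative Ifitm2 differed by 0.28.

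All 9 measured interferon-inducible GTPases lay below the median of all genes (list median -1.04). Of these, 5 were at least 2-fold lower (1.28% over all genes). Mx1 read 6.71, 8.59, 4.22 and 4.72, so the level was highest in GFP-low monocytes. Irgm1 (-1.34), Ifi47 (-1.30), Irgm2 (-1.14) and Igtp (-1.04) belong to the immunity-related GTPases, whereas the guanylate-binding protein genes Gbp2 (-0.38), Gbp7 (-0.35) and Gbp3 (-0.01) were under 2-fold. Probes for such near-identical copies can pick up each other's RNA, which was not checked here. Sensors of nucleic acid were divided. Ifih1, Ifi209, Dhx58 and Eif2ak2 differed by -1.18, -1.22, -0.99 and -0.99, and the adaptor genes Sting1, Mavs and Myd88 by 0.22, 0.28 and 0.42, with a list median of -0.35. Among secreted products the median was -0.42, with Cxcl10 at -2.36, Il18 at -0.80, Il15 at -0.71 and, on the higher side, the monocyte chemokine gene Ccl2 at 0.69.

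The primary and secondary granule lists went opposite ways. The primary granule list, which holds the peroxidase, serine proteases and companion genes, was higher in Gfi1-deficient monocytes. Of its 14 measured members 7 were at least 2-fold higher (0.641% over all genes) and none at least 2-fold lower, with a list median of 1.01. Its members were chosen with earlier results of these data known, which may raise that count. Mpo, the myeloperoxidase gene, read 11.42, 8.08, 13.66 and 9.36. The neutrophil serine protease genes Elane (11.75, 9.31, 13.64 and 8.72), Prtn3 (11.97, 9.69, 13.32 and 8.26) and Ctsg (10.36, 7.89, 12.27 and 7.34) were lowest in granulocytes, whereas Mpo was lowest in GFP-low monocytes. For these 4 genes Gfi1-deficient monocytes lay above GFP-low monocytes and below GFP-high cells. Ms4a3, a membrane protein gene of granulocyte precursors, read 8.19, 5.59, 12.02 and 6.89. Cst7, a cathepsin inhibitor gene, and Nkg7, a granule membrane protein gene, differed by 1.77 and 1.57. The other 7 members, which encode the protease-activating enzyme Ctsc (0.36), the serpin Serpinb1a (0.45) and lysosomal hydrolases such as Gusb (0.42) and Fuca1 (-0.02), were under 2-fold.

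Genes of the eosinophil list went the same way. Prg2, the eosinophil major basic protein gene, read 10.54, 7.53, 12.16 and 7.29, and Epx, the eosinophil peroxidase gene, read 8.11, 4.75, 10.18 and 5.02 and was at least 7.63-fold higher. Prg3 (1.52) and Alox15 (1.05), a lipoxygenase gene, were past 2-fold as well. Over the 8 genes of the list the summed linear signal was 2364, 553, 7915 and 752, with 6, 4, 7 and 5 genes above the floor. The receptor genes Il5ra and Ccr3, which define the lineage, were below the floor on both arrays compared, and Siglecf read 5.81 against 4.92.

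Secondary granule genes were lower in Gfi1-deficient monocytes for 16 of 19 measured members relative to the median of all genes (list median -0.47). Of the 19, 5 were at least 2-fold lower (1.28% over all genes). Camp, the cathelicidin gene, read 7.37, 12.41, 14.18 and 13.96, a 32.9-fold lower level. Ltf, which encodes the iron-binding lactoferrin, read 7.36, 12.18, 14.07 and 14.10, and Ngp, which encodes neutrophilic granule protein, read 9.80, 13.32, 14.35 and 14.29. For all 3 the Gfi1-deficient sample was the lowest of the 4 arrays and GFP-low monocytes lay closer to granulocytes. Itgb2l (-2.20) and the peptidoglycan-binding Pglyrp1 (-1.29) followed, and Lcn2, another iron-related granule protein gene, read 11.63, 12.31, 13.97 and 13.92. The list was not uniform: the lysozyme genes Lyz1 and Lyz2 differed by -0.02 and 0.01, and Mmp8, Hp and Slpi by 0.71, 0.37 and 0.33.

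Later granule and neutrophil genes showed no common direction. Mmp9, the gelatinase of tertiary granules, read 5.94, 8.45, 11.25 and 13.59 and was 5.73-fold lower, while Il1f9, an interleukin-1 family gene of neutrophils, read 7.04, 5.61, 7.48 and 11.36. The tertiary and late granule list had a median of -0.02 over 10 measured members, and the mature neutrophil list one of 0.12 over 28. Within the latter the calgranulin gene S100a9 (-1.28) and the chemokine receptor gene Cxcr2 (-0.65) were lower, and the lectin receptor gene Clec4e (1.48) and the receptor gene Trem1 (0.95) were higher. Of the 28 measured mature neutrophil genes, 16 lay above and 12 below the median of all genes, and the part of neutrophil-lineage cells in the granule gene values was not tested.

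**Figure D2:**
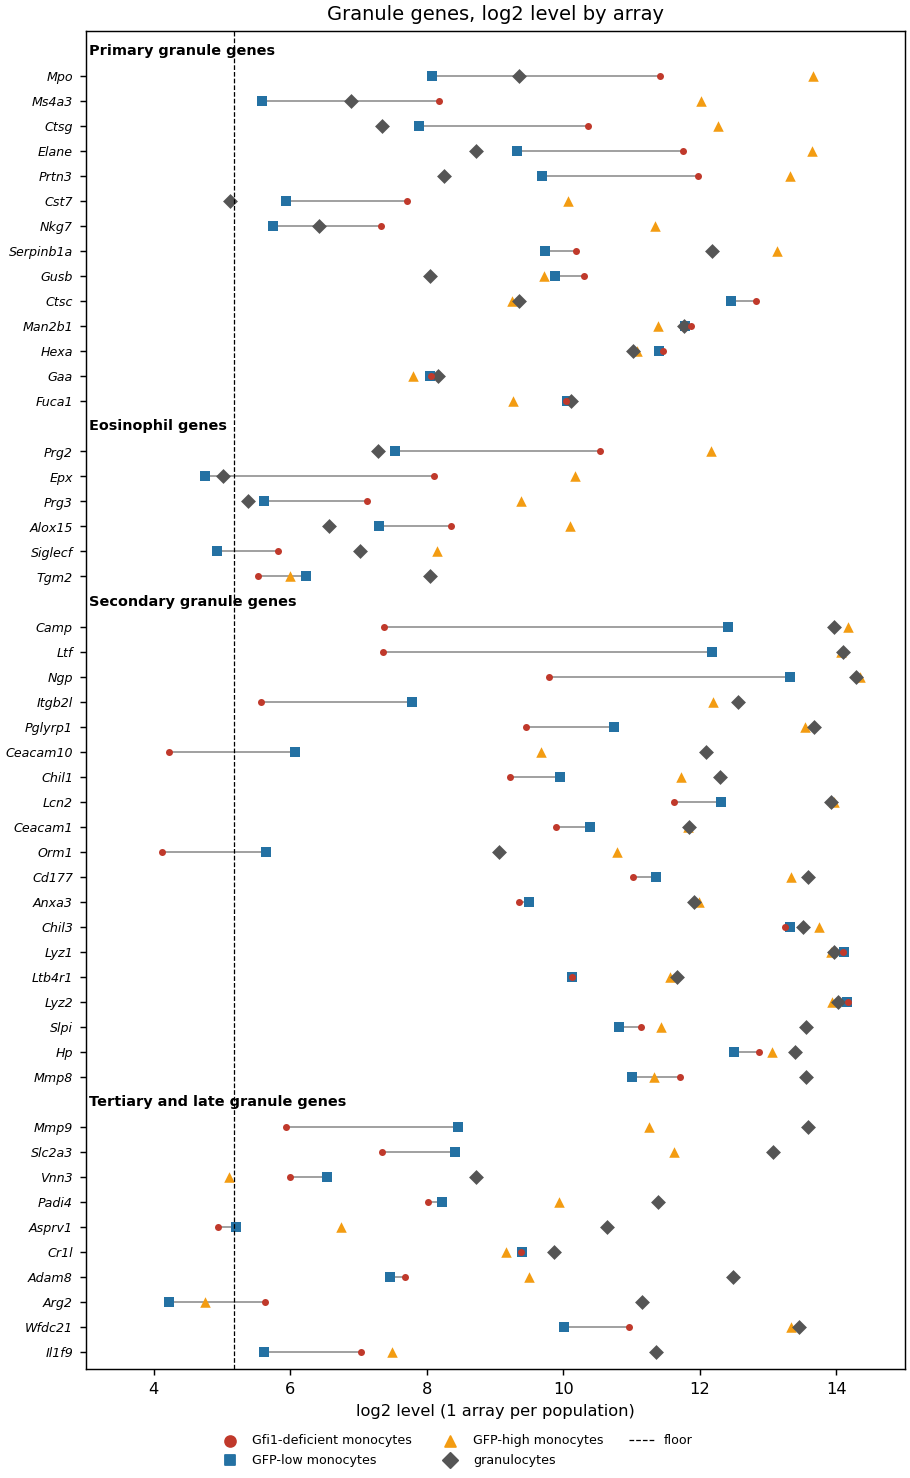
Log2 level of the measured primary granule, eosinophil, secondary granule and tertiary granule genes, 1 row per gene and 1 symbol per array, with the grey line joining Gfi1-deficient (red) and GFP-low (blue) monocytes. Mpo lies at 11.42 and 8.08 and Camp at 7.37 and 12.41, so the red point is to the right at the top of the plot and to the left in the upper rows of the secondary granule block.

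Genes of non-classical monocytes were lower in Gfi1-deficient cells. Of 19 measured members 18 lay below the median of all genes, and the list median was -0.61. At least 2-fold lower were 4 of the 19 (1.28% over all genes). Eno3, an enolase gene, read 5.66, 7.60, 5.44 and 6.21. The peptidase gene Ace read 6.59, 8.02, 6.63 and 7.22, and Adgre4, an adhesion receptor gene, read 8.36, 9.72, 6.75 and 6.50. In each of these GFP-low monocytes were the highest of the 4 arrays. Fabp4 was below the floor in Gfi1-deficient monocytes and at least 2.40-fold lower. Cx3cr1, the fractalkine receptor by which patrolling monocytes are recognised, read 9.82, 10.78, 5.71 and 6.64, just under 2-fold, and Nr4a1 read 10.91, 11.55, 8.98 and 10.38. S1pr5, a receptor that guides the exit of patrolling monocytes from marrow and stands in none of the lists, read 4.62, 6.55, 3.65 and 3.98 and was at least 2.60-fold lower. The Fc receptor gene Fcgr4 was the exception in the list, at 8.40 against 7.96 (0.45).

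Classical monocyte genes did not shift as a list, with a median of 0.01 over 35 members. Vcan, the versican gene, read 10.22, 8.67, 4.09 and 3.94 and was 2.93-fold higher, and Ms4a6d read 10.66, 9.65, 4.82 and 4.95. Both were thus highest in Gfi1-deficient monocytes and lower in GFP-high cells and granulocytes than in GFP-low monocytes. The summed signal of the whole list was also lower in GFP-high cells and granulocytes, at 162300, 162300, 26640 and 44440. Cd14, the lipopolysaccharide co-receptor gene, differed by 0.69, Cd48 by -0.25, Csf1r by -0.28 and Ptpro, a receptor phosphatase gene, by -0.54.

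MHC class II genes, which present antigen to helper T cells, were lower. The 2 chains of the I-A molecule, H2-Aa (9.22, 11.20, 6.90 and 9.61) and H2-Ab1 (7.96, 9.89, 6.16 and 8.25), the I-E chain gene H2-Eb1 (8.00, 9.92, 6.73 and 8.75) and the invariant chain gene Cd74 (9.49, 11.30, 7.38 and 9.58) were each past 2-fold, with differences of -1.97, -1.93, -1.92 and -1.81. Over the list, 13 of 14 measured members lay below the median of all genes and the list median was -0.30. The peptide-loading gene H2-DMa (-0.58), the costimulatory genes Cd40 (-0.83) and Cd80 (-0.40) and the Rfx factors (between -0.16 and 0.01) differed less. Ciita, the master activator of this family, was below the floor on both arrays. Of 15 conventional dendritic cell genes, Cd209a, a lectin gene also found in a monocyte subset, read 6.13, 8.14, 4.99 and 5.97, Cd83 was below the floor in Gfi1-deficient monocytes, and Flt3 differed by -0.22. The dendritic cell genes Zbtb46, Xcr1 and Ccr7 were below the floor on both. The summed signal of that list was 3187 without Gfi1 and 3201 in the GFP-low sample, with 7 and 9 of 15 genes above the floor, and the part of dendritic cells in the class II values was not tested. Class I genes had a median of -0.24, with Tap1, the peptide transporter gene, at -0.74 and H2-K1, H2-D1 and B2m at -0.38, -0.38 and -0.36.

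**Figure D3:**
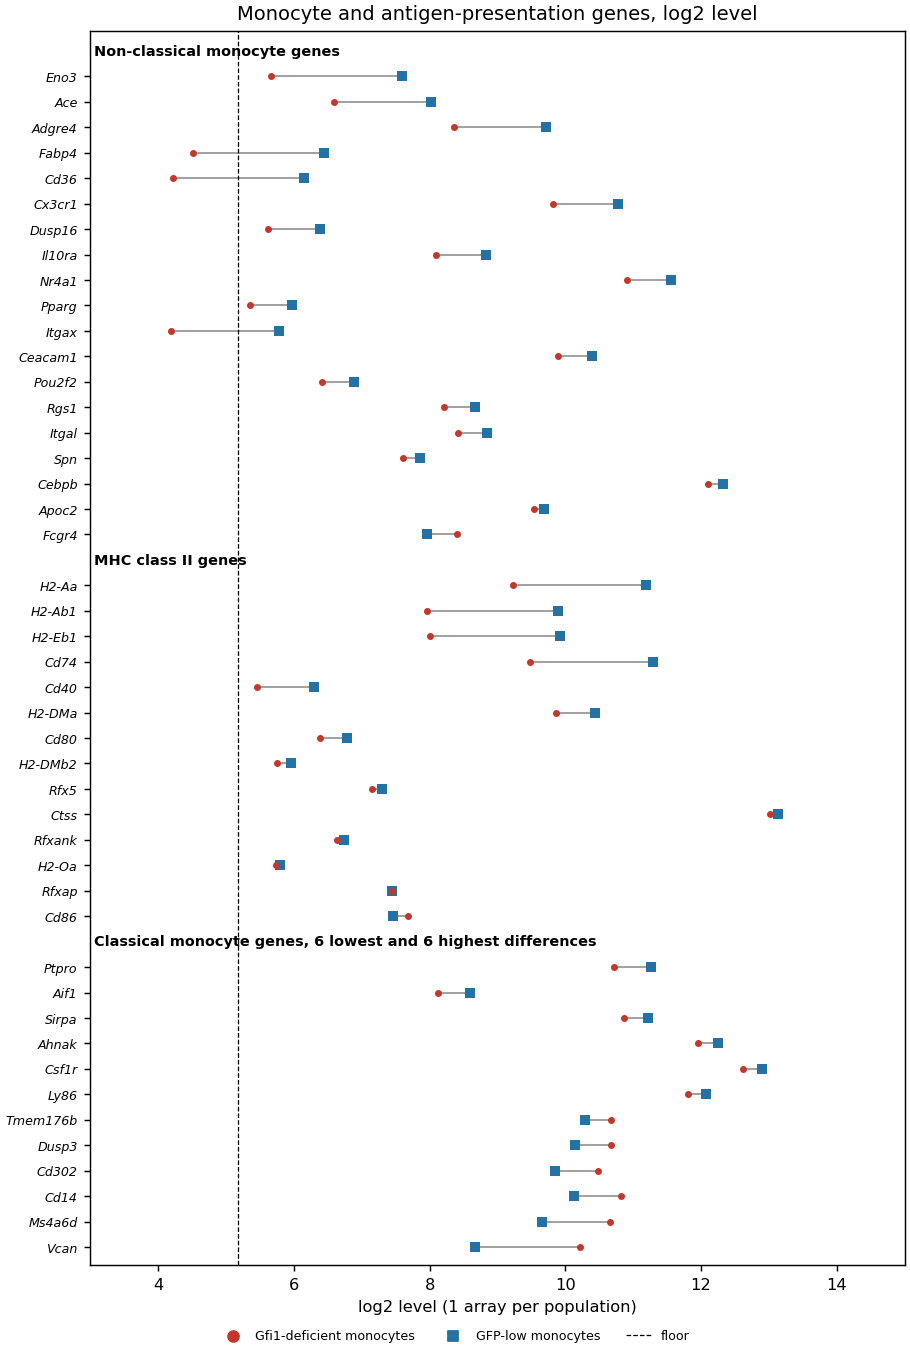
Log2 level of non-classical monocyte genes, MHC class II genes and the 12 classical monocyte genes at the ends of their range, in Gfi1-deficient (red) and GFP-low (blue) monocytes, 1 array each, with the dashed floor at 5.18. In the first 2 blocks the red point lies to the left for every gene but Fcgr4, Rfxap and Cd86, with H2-Aa at 9.22 and 11.20, and the classical block runs from Ptpro (-0.54) to Vcan (1.55).

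Single genes outside these groups were also higher. Of 19 measured acute-phase and secreted genes, 9 lay above and 10 below the median of all genes, with a list median of -0.05, and the immediate early and inflammatory list lay lower, with a median of -0.27. Dmkn, which encodes the secreted protein dermokine, read 8.77, 4.80, 7.96 and 3.88 and was at least 12.1-fold higher. Lrg1, a secreted glycoprotein of neutrophil granules and plasma, read 11.09, 8.01, 12.25 and 12.96, so GFP-low monocytes stood alone at the lower end. Saa3, an acute-phase apolipoprotein gene, read 8.42, 5.64, 5.97 and 5.91 and was high in Gfi1-deficient monocytes only. Zfp36l1, whose product destabilises AU-rich messenger RNA, read 9.38, 7.32, 5.07 and 8.54, and the early response gene Ier3 read 10.19, 8.26, 8.29 and 9.89. Selp, the P-selectin gene, read 7.30, 5.13, 5.77 and 7.36. Selp also marks platelets, and of the 11 measured megakaryocyte and platelet genes it was the only one past 2-fold. In that list 9 lay below the median of all genes and the list median was -0.12. The list was dim, with median levels of 5.99 and 6.20 on the arrays compared. With all genes ranked by mean level into 10 groups, 31.4% of the dimmest group and 36.8% of the next lay above the median of all genes. Pf4 read 5.88 against 6.30 and Ppbp 5.38 against 6.20. The summed signal of the list was 4940, 5771, 4280 and 13290, and the part of platelets in the Selp value was not tested.

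Several receptors of the innate response were higher, while their lists did not pass the rule for a shift. The C-type lectin genes Clec4e, Clec4n and Clec4d, which recognise microbial glycolipids and fungal sugars, differed by 1.48, 1.26 and 0.69, the receptor gene Trem1 by 0.95 and the endotoxin receptor gene Tlr4 by 0.80. Lbp, which hands endotoxin to Cd14, read 8.98, 8.11, 11.45 and 10.36. Ccr1, a receptor for inflammatory chemokines, read 10.75, 9.57, 9.51 and 12.13, and Bst1, an ectoenzyme gene, read 8.85, 7.30, 5.27 and 10.22. The list of Fc receptors, C-type lectins and Siglecs had a median of 0.22, with 15 of 22 members above the median of all genes. The Toll-like receptor list had a median of 0.15, with 9 of 16 above. Among other higher genes, Ctsl, a lysosomal protease gene, read 10.77, 9.21, 7.49 and 9.10, and F10, the coagulation factor X gene, read 11.18, 10.05, 8.58 and 6.20. Gcnt2, a glycosyltransferase gene with 2.30 on the probe set used, ranged from 0.07 to 2.15 on its 4 other measured probe sets. The metal-binding gene Mt1 showed 1.58 and 0.22 on its 2 probe sets.

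Lower genes outside the interferon, granule and class II groups included lipid and signalling genes. Hpgd, which inactivates prostaglandins, read 7.83, 10.21, 6.32 and 6.60, with -0.34 on its weaker probe set. Lpl, the lipoprotein lipase gene, read 9.12, 10.75, 7.42 and 6.89 and was lower on both of its probe sets (-1.63 and -1.06). Slamf8, a receptor of activated myeloid cells, read 5.72, 7.84, 3.98 and 4.43, and Rabgap1l, a regulator of vesicle traffic, read 5.86, 8.39, 7.27 and 7.66. Adam19, a membrane metalloprotease gene, and Dpp4, a surface peptidase gene, were below the floor in Gfi1-deficient monocytes and read 7.26 and 7.25 in GFP-low monocytes, so the differences of -2.08 and -2.07 are bounds set by the floor. For Hpgd, Lpl and Slamf8 the Gfi1-deficient level lay between GFP-low monocytes and the other 2 arrays. Of the 100 lower genes, GFP-high cells were at least 2-fold below GFP-low monocytes for 71 and above for 13, and granulocytes were below for 43 and above for 19. Of the 50 higher genes, GFP-high cells were at least 2-fold above for 19 and below for 14, and granulocytes were above for 16 and below for 13. All of these differences share the GFP-low array, by which the genes were also picked, so they are given as levels set side by side. The same counts over all measured genes are not given here, so these counts show nothing particular to the changed genes.

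Most myeloid regulators had small differences. Of 60 measured myeloid transcription factor genes none was at least 2-fold higher, where 0.641% of all measured genes were. At least 2-fold lower were 4 (1.28% over all genes), and 48 lay below the median of all genes (list median -0.18). Bach2, a repressor of myeloid and plasma cell programmes, read 5.19, 6.63, 4.91 and 6.97. Ets2 read 7.03, 8.09, 9.34 and 11.10, and Ets1 was below the floor in Gfi1-deficient monocytes against 6.32. The monocyte regulators Irf8 (10.80 and 10.80), Klf4 (11.36 and 11.38) and Spi1 (10.85 and 10.85) were equal within the scatter of probe sets. Zeb2, a transcriptional repressor that acts in monocyte and dendritic cell fate decisions, read 11.30 against 11.94, and Batf was the highest at 0.83. The corepressor list of Gfi1 had a median of 0.00 over 22 members, with Kdm1a at -0.14, Rcor1 at -0.13 and Hdac2 at 0.32. Genes reported elsewhere as Gfi1 targets had a median of 0.00 over 24 members. Among them Elane (2.44) and Socs3 (1.10) were higher, Ets1 (-1.15) was lower, and Csf1, Csf1r and Cebpa, which act in monocyte development, differed by -0.15, -0.28 and -0.24.

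Immediate early and inflammatory genes lay below the median of all genes for 31 of 37 measured members (list median -0.27). The phosphatase gene Dusp2 read 5.58, 7.14, 6.00 and 6.63. Egr1 (-0.54), Btg2 (-0.64), Tnfaip3 (-0.76) and Relb (-0.97) were lower under 2-fold. Ier3 and Socs3 were the 2 members at least 2-fold higher (0.641% over all genes), and 2 were at least 2-fold lower (1.28%). Heat shock genes split as well, with the inducible Hspa1a (-1.06) and Hspa1b (-1.15), a near-identical pair that arrays may not separate, lower, and Hsph1 (0.82) higher. Integrin and adhesion genes had a median of -0.17, actin genes -0.05 and p53 target genes -0.09, each with 3 in 4 members or more below the median of all genes.

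Several markers of other lineages differed between the arrays. All 15 measured erythroid genes lay below the median of all genes (list median -0.50), with Hemgn at 6.22 against 7.41 and the anion exchanger gene Slc4a1 at 7.53 against 8.59, and the summed signal was 1695, 2519, 2527 and 3259. Of 13 natural killer cell genes, 1 was above the floor in the Gfi1-deficient sample and 6 in the GFP-low one, the brightest of them Ccl5 (5.34 against 6.16), and Ncr1 and Prf1 were below it on both. The 11 measured plasma cell and immunoglobulin genes were split, with 5 above and 6 below the median of all genes, a list median of -0.01 and a summed signal of 7809, 8927, 5511 and 4693. Of these, 3 were at least 2-fold lower (1.28% over all genes). Igha read 7.33, 10.61, 7.66 and 8.42, and the joining chain gene Jchain read 6.49, 8.18, 5.60 and 6.45. The transcription factor gene Irf4 read 5.99, 7.06, 4.24 and 5.85. Ighm differed by -0.10 and the plasma cell surface gene Sdc1 was below the floor on both. The plasmacytoid dendritic cell gene Upb1 read 6.22, 8.16, 5.11 and 5.41, and Tcf4, the regulator of that lineage, differed by -0.38. The part of these cells in the lower interferon and class II values was not tested.

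Alongside these large differences, many growth and metabolism genes were higher by small amounts that went one way. Of 54 lists with at least 10 measured members, 16 had 3 in 4 members or more above the median of all genes and 14 had as many below it. DNA replication genes were above it for 42 of 44 members, with a list median of 0.41, a 1.33-fold level. Cdc6, which loads the replicative helicase, read 7.34, 6.52, 9.06 and 5.77. The helicase subunit genes Mcm2, Mcm3, Mcm4, Mcm5, Mcm6 and Mcm7 differed by 0.50, 0.42, 0.32, 0.43, 0.33 and 0.28. Mitosis genes were above for 53 of 62 (list median 0.35), with the kinase gene Melk at 8.44 against 7.66. Members such as Pttg1 (-0.59), Cenpe (-0.39) and Mki67 (-0.23), widely used as a marker of cycling cells, went the other way. For both lists the Gfi1-deficient level lay between GFP-low monocytes and GFP-high cells, with median levels of 8.29, 7.91, 9.34 and 6.55 for replication and 9.28, 8.79, 10.01 and 7.34 for mitosis.

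Mitochondrial ribosomal proteins had the largest one-sided share of the 54 lists apart from the erythroid list, with 69 of 70 measured members above the median of all genes, a list median of 0.32 and quartiles of 0.22 and 0.39. Mrpl19 was the highest at 7.97 against 7.31 and Mrps6 the single lower one at 5.95 against 6.09. No member reached 2-fold. Respiratory complex I, which feeds electrons from NADH into the respiratory chain, was above for 29 of 31 subunits (0.27), and ATP synthase for 16 of 17 (0.19). Complexes II to IV followed with 23 of 26 (0.12), and the citrate cycle with 16 of 20 (0.18). Here Ndufa5 differed by 0.50, Atp5g1 by 0.48, and Fh1 and Idh3a of the citrate cycle by 0.59 and 0.49. Unlike the replication genes, the mitochondrial ribosomal list was no higher in GFP-high cells, with median levels of 8.55, 8.26, 8.26 and 7.29.

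Genes of protein synthesis and quality control were higher by similar amounts. The aminoacyl-tRNA synthetases, which charge transfer RNA, were above for 18 of 20 members (0.32), and ribosome biogenesis genes for 44 of 53 (0.23), with the RNA polymerase I subunit gene Polr1e at 0.85. Cytosolic ribosomal proteins were above for 32 of 42, with a median of 0.11. Translation factors were above for 29 of 36 (0.11). Proteasome subunits were above for 32 of 34 (0.21), and endoplasmic reticulum folding and secretion genes for 49 of 55 (0.25), led by Manf (0.87) and Creld2 (0.78), both induced by unfolded protein. Nucleotide synthesis enzymes were above for 18 of 23 (0.34), with Srm, the spermidine synthase gene, at 0.91 and Shmt2, which makes one-carbon units in mitochondria, at 0.76. Cytosolic chaperones were above for 20 of 26 (0.22). Glycolytic enzymes did not qualify, with 10 of 16 above, Ldha at 0.48 and the glucose transporter gene Slc2a3 at -1.06. Bright genes lay a little above dim ones in general: in 10 groups of all genes ranked by mean level, the median difference ran from -0.06 in the second group to 0.08 in the fifth and was 0.04 in the brightest. The medians of cytosolic ribosomal proteins and translation factors lay near that range. The share of genes above the median of all genes was 31.4% in the dimmest group, 36.8% in the second and 58.2% in the fifth. Lists of dim genes thus have a background below 50.0%.

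**Figure D4:**
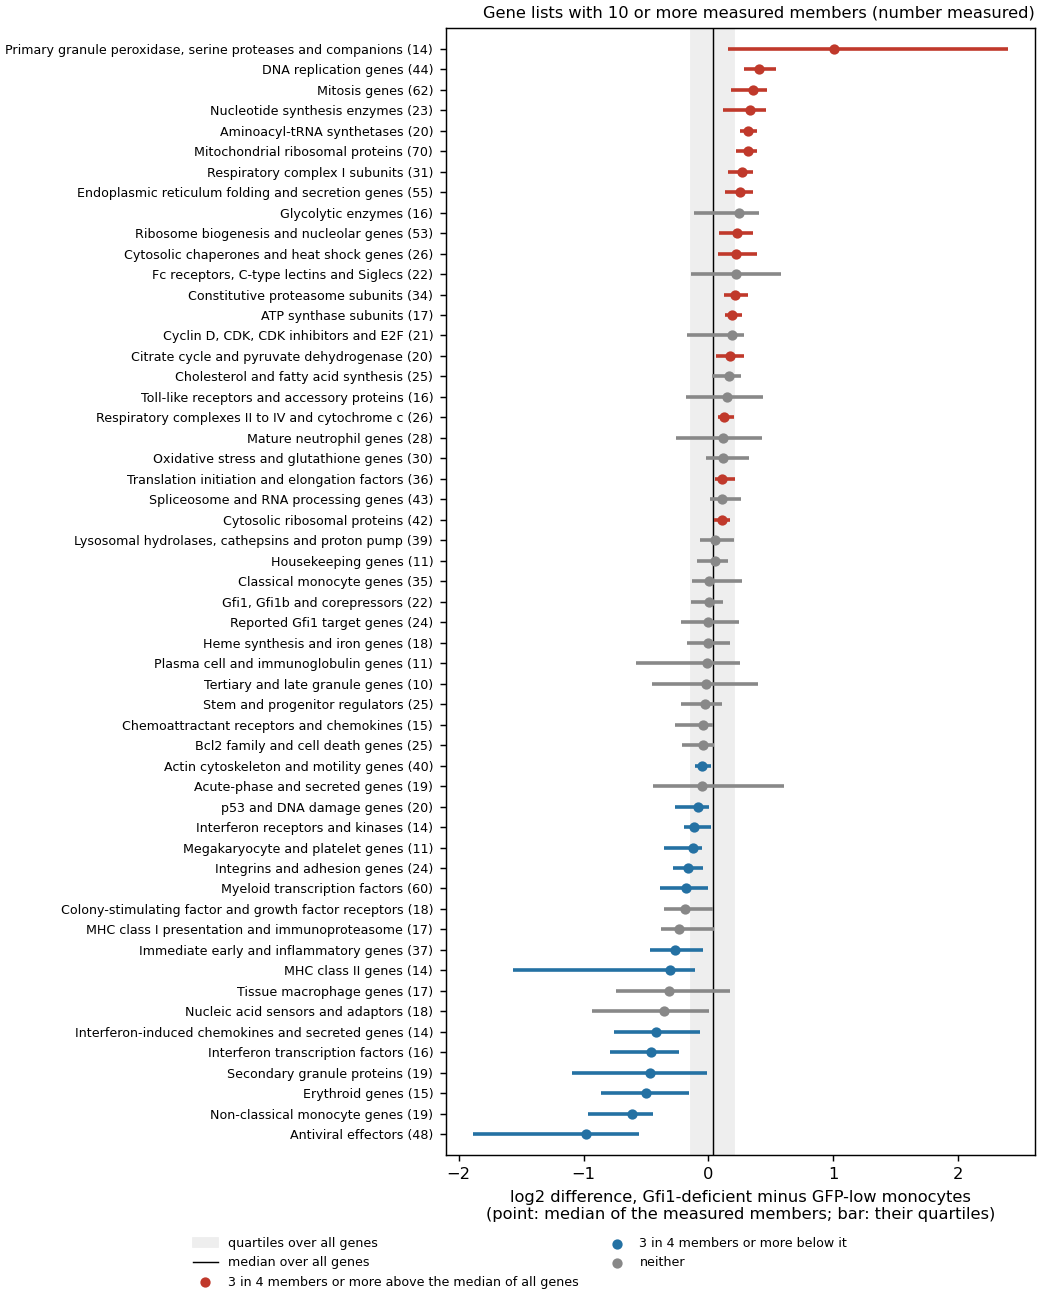
Median (point) and quartiles (bar) of the log2 difference for each of the 54 gene lists with at least 10 measured members, with the number measured in brackets, beside the quartiles (-0.14 and 0.20, grey band) and median (0.03, line) over all genes. Red lists, such as mitochondrial ribosomal proteins at 0.32, had 3 in 4 members or more above the median of all genes, and blue lists, such as antiviral effectors at -0.98, had 3 in 4 or more below it.

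Genes past 2-fold were spread over the autosomes, in places as neighbours that shared a direction. Neighbours here are genes that follow each other among the measured genes of a chromosome, so genes not measured may lie between them. Runs of 3 lower neighbours were H2-Ab1, H2-Aa and H2-Eb1 on chromosome 17 and Ifit2, Ifit3 and Ifit1 on chromosome 19. Higher neighbours were Prtn3 with Elane, Mpo with Epx, Prg2 with Prg3, and Ms4a6d with Ms4a3. Chromosome 5, which carries Gfi1, had 10 of 519 measured genes at least 2-fold lower (1.93%) and 2 higher. Chromosome 12 had 8 of 265 lower (3.02%) and chromosome 14 none of 260, beside 1.28% over all measured genes. The Oas and Oasl genes lie on chromosome 5, and 138 of the 150 genes past 2-fold lie elsewhere.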

How the data were processed

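TRIzol extracts of total RNA, 6 µg each, gave biotin-labelled target for Affymetrix arrays, per the labels' protocols. The authors deposited 1 log2 value per probe set and array for 22690 probe sets. The log base was inferred from the range, 2.70 to 14.50, and how the authors corrected, summarised and normalized the signals is not given in the sources used here. Array medians were 5.98, 6.01, 5.96 and 5.91, so values were used unscaled, and a true difference of most genes in one direction would not show.

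Probe sets were named from the platform table through gene identifiers of GRCm38.p6: 20380 had 1 gene, 691 several and 1619 none, and 64 controls were set apart. The floor was the 40th percentile. With 1 array per group, genes were counted by size (2-fold, 4-fold) and 66 gene lists by median, quartiles and members on each side of the median of all genes. A list was called shifted with at least 10 measured members and 3 in 4 on one side. Members and lists were chosen with earlier results of these data known. Genes named are those 4-fold apart, the 2-fold and largest members of the lists, opposite members, and the largest outside lists. Some list members of small difference, such as Mcm genes and interferon receptors, were named for their role after their values were seen. Motifs were searched on both strands of RefSeq promoters. Of the 1869 listed symbols, those not found on the array were not analysed here. RNA quality read from the 3′ minus 5′ control probes was 0.28 and 0.16 for Actb and -0.10 and -0.06 for Gapdh in Gfi1-deficient and GFP-low monocytes. Python 3.11.15, pandas 2.3.3, numpy 2.4.6, statsmodels 0.14.6 and matplotlib 3.10.9 were used, and the calculations were tested on simulated data. The alternatives were other floors, scalings and probe set choices, sex chromosomes kept and, added after seeing the data, chromosome 5 left out.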

Additional observations from a re-analysis of the deposited data

Results flagged for a closer look

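Sex-linked transcripts lie outside the autosomal comparison and differed between the samples. The Y-linked Eif2s3y read 8.31 and Kdm5d read 6.08 on the array of Gfi1-deficient monocytes, and both were below the floor on the other 3 arrays. Xist, the transcript of the inactive X chromosome, read 5.80 there and 10.42 in GFP-low monocytes. The labels do not give the sex of the mice, and differences that come with it cannot be told apart from those of genotype.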

How the results depend on the processing

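With 1 array per population and no replicate, depth or detection call, the floor is the only guard for dim genes, and no value has a check in another animal. No paired analysis was possible because each group holds 1 array. A floor at the 60th percentile left 33 higher genes past 2-fold, and 7 higher and 12 lower genes past 4-fold, and the medians were 0.48 for primary granule genes and -0.58 for MHC class II genes. The median of interferon-induced chemokines and secreted genes was -0.16 with the floor at the 20th percentile and -0.15 without a floor, which add dim members. The median over the probe sets of a gene moved the secondary granule median to -0.28. Keeping members above the floor on both arrays moved the erythroid median to -0.68, and leaving out chromosome 5 moved the primary granule median to 1.57, since a member lies on it. No result was classed as reversed under the 12 alternatives, and no gene past 2-fold changed sign where it had a value. The median over all genes was 0.03 in the main setting, -0.0015 without a floor and -0.0058 after loess. Of the 30 list shifts, 22 kept the required share of members on one side under all 12, and 345 of 360 checks did. The others were interferon receptors and kinases, interferon-induced chemokines, p53 and actin genes, myeloid transcription factors, cytosolic ribosomal proteins, translation factors and nucleotide synthesis enzymes. These checks did not apply the minimum of 10 measured members. With the floor at the 60th percentile, erythroid genes (8 measured), megakaryocyte and platelet genes (4) and MHC class II genes (9) fell below it. Megakaryocyte and platelet genes (9) also did so without chromosome 5. In those settings these lists kept the share but did not meet the full rule. Of the 150 genes past 2-fold, 145 stayed past it after quantile normalization and after centring each array, 147 after loess, 127 of 148 with the median over probe sets and 100 of 136 with the higher floor.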

Other observations

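Macrophage and scavenger genes were mostly lower in Gfi1-deficient monocytes. Over 17 measured tissue macrophage genes the median was -0.31, with 12 below the median of all genes, too few for the rule of 3 in 4. Axl, a receptor for apoptotic cells, read 6.33, 7.72, 7.23 and 6.39 in Gfi1-deficient, GFP-low and GFP-high monocytes and granulocytes. Mrc1, the mannose receptor gene, read 5.78, 6.91, 7.82 and 6.08, and the scavenger receptor gene Msr1 read 7.67, 8.81, 6.00 and 6.59. The complement genes C1qb (6.37 against 7.13) and C1qa (5.47 against 5.99) were dim, and Cd68 (-0.05) differed little. The macrophage genes Spic, Mertk and Cd163 were below the floor on both arrays.

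Genes of cell death and lipid handling also held single differences. The genes in these paragraphs were singled out after their values were seen. The executioner caspase gene Casp6 read 9.46, 8.55, 5.69 and 6.87 and the necroptosis kinase gene Ripk3 read 8.74, 7.83, 7.82 and 6.36, both under 2-fold, in a list with a median of -0.04. Atp11a, a lipid flippase gene, read 9.36, 7.43, 8.51 and 9.70, and Fads1, a fatty acid desaturase gene, read 6.65, 5.47, 5.93 and 5.19. Lpin1, which makes diacylglycerol, read 6.92, 8.48, 5.92 and 5.90 and was lower in Gfi1-deficient than GFP-low cells.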
